A study of Mus musculus with 8 samples.

Results

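To see which genes dynasore changes by itself, the 2 arrays from cells given dynasore alone (Dynasore) were compared with the 2 arrays from cells given only its solvent (DMSO). These are 4 of the 8 arrays of the study, taken by their labels. The comparison itself was chosen with earlier results of these data known. C2C12 is an established line of mouse myoblasts that can form muscle fibres or, when given BMP-2, osteoblast-like cells. All cultures were starved of serum for 4 h, with dynasore at 40 µM or DMSO at 0.05% in the medium for the last 2 h of that time. They then stayed for 6 h more in the same inhibitor or solvent, still in serum-free medium. The other 4 arrays came from cells treated in the same way with 30 nM BMP-2 added for those 6 h (BMP-2+DMSO and BMP-2+Dynasore). The duplicates were biological, all of 1 cell line, with 1 dose of 1 inhibitor at 1 time. Changes that follow from blocked dynamin and changes from any other action of the compound therefore cannot be told apart.

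Dynamins are large GTPases that pinch vesicles off the cell membrane, and dynasore is a small molecule that blocks their GTPase activity. Cells that cannot pinch off coated vesicles take up little transferrin, the carrier of iron, and little of the cholesterol that lipoprotein particles carry. Genes for iron uptake and sterol synthesis are each controlled by the supply inside the cell. The cultures here were in serum-free medium, and the part of uptake in the changes below was not tested. The integrated stress response is a separate control in which phosphorylation of the initiation factor eIF2α slows general translation and favours that of the transcription factor ATF4, which raises genes for amino acid supply.

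Messenger RNA was measured on bead arrays, on which each probe gives an intensity in arbitrary units. Of 18138 probes, 10244 exceeded background on 2 or more of 8 arrays and entered the test, which was made with limma. The fit held 7 arrays, because 1 of the BMP-2+DMSO duplicates, which correlated at r = 0.777, was left out as in the methods of the study. The methods do not name the array, and replicate 2 was kept here. Background ended at 258 units on replicate 2 and at 24.6 on replicate 1. With replicate 1 kept in its place, 1841 probes were higher with dynasore and 1992 lower. A probe is said here to have risen or fallen when its p, adjusted by the Benjamini-Hochberg method over all 10244 probes, was under 0.05 and the 2 arrays of 1 group lay wholly above those of the other. With dynasore 1838 probes rose (17.9%) and 1996 fell (19.5%). On 36% of probes the Dynasore arrays lay above the DMSO arrays whatever the p, and on 36.5% below. Counted by gene, with the brightest probe standing for a gene that has several, 1698 of 9390 genes rose (18.1%) and 1853 fell (19.7%). A group count near these shares shows nothing particular to that group. Of the risen genes 110 were above background on no DMSO array, and of the fallen genes 105 on no Dynasore array. Such genes could enter the test through the group in which they were high.

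Most changes were modest. The median rise among called genes was 0.75 on the log2 scale and the median fall −0.76, and the median over all tested probes was −0.00292. A change of at least 2-fold was reached by 487 rising and 578 falling genes, of at least 4-fold by 86 and 66, of at least 8-fold by 31 and 8, and of at least 16-fold by 13 and 2. The 2 DMSO arrays correlated at r = 0.994 across tested probes and the 2 Dynasore arrays at r = 0.995. The number of calls depended on the arrays in the fit. With all 8 arrays fitted the same log2 changes gave 157 genes higher (1.67%) and 145 lower (1.54%). With only the 4 compared arrays fitted 2278 were higher and 2373 lower. The test sets each change against a spread pooled over all groups with duplicates. To this the 8-array fit adds the BMP-2+DMSO pair, whose probes differed with an SD of 1.44 on the log2 scale. That SD was 0.227 for DMSO, 0.216 for Dynasore and 0.436 for BMP-2+Dynasore. A call missed only in the 8-array fit therefore comes with the spread of the added pair, while the compared values stay as they were. With 1 of the 4 compared arrays left out, 1169 to 1243 probes were higher and 1276 to 1355 lower. Beside the gene groups below, the number called in the 8-array fit is therefore given as well, and the count with single DMSO or Dynasore arrays left out, or with another scaling (equal array medians, or no further normalization after background correction), where a count of at least 3 moved by more than 1.5 times. Folds of named genes come from the 7-array fit, on values with an offset of 16 added and quantile normalized. Intensities in units are the deposited values. For dim probes a fold can therefore be much smaller than the ratio of the units printed beside it. Some genes stand on more than 1 list. Above background stood 8874 to 9464 probes on the DMSO arrays and 9045 to 9347 on the Dynasore arrays. The intensity at which background ended was 17.2 to 26.8 units on the DMSO arrays and 30.0 to 33.1 on the Dynasore arrays, and its part in the changes of dim probes was not tested.

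**Figure D1:**
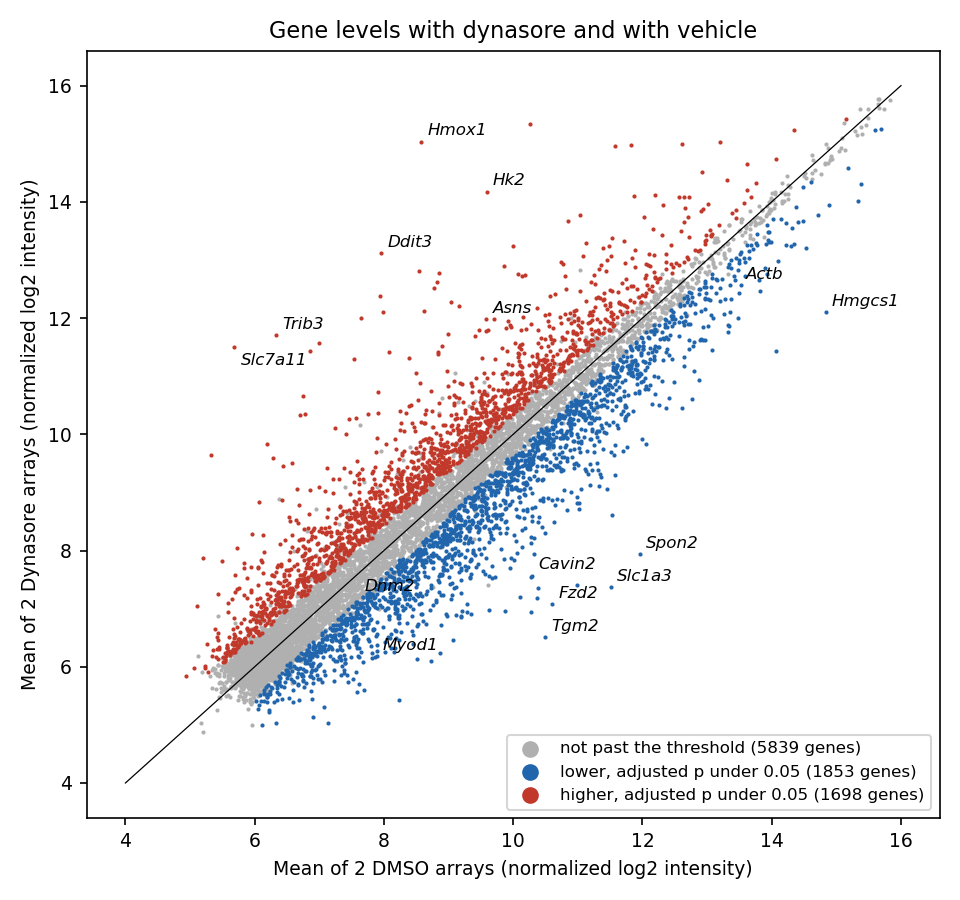
Mean normalized log2 intensity of 9390 genes on the 2 DMSO arrays (horizontal axis) and the 2 Dynasore arrays (vertical axis); each point is 1 gene, coloured by its call, and the line marks equal levels. Hmox1, Hk2, Ddit3, Trib3 and Slc7a11 lie far above the line, Slc1a3, Spon2, Tgm2 and Fzd2 far below it, and the dynamin Dnm2 on it.

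The dynamins themselves did not pass the test. Dnm2, the form found in most tissues, gave 175 and 196 units on the DMSO arrays and 186 and 178 on the Dynasore arrays, a log2 change of 0.03 ± 0.17 (standard error of the fit, n = 2 in each group as for every such value below; adjusted p = 0.91). Dnm1, best known from neurons, gave 49.4 and 63.2 against 57.5 and 87.2 (0.08 ± 0.19, adjusted p = 0.78). Dnm1l, which divides mitochondria, gave 748 and 710 against 609 and 663 (−0.09 ± 0.15, adjusted p = 0.69). The groups overlapped for Dnm2 and Dnm1, and the sign of the small change of Dnm2 turned when the arrays were scaled in other ways. Dnm3 was not above background.

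Among 44 measured genes of endocytosis and the early endosome, 8 rose (18.2%) and 10 fell (22.7%), shares near those of all genes, and the median change was −0.11. The members that fell most belong to caveolae, the small flask-shaped pits of the membrane. Cavin2, which helps to shape these pits, gave 1376 and 1306 units with DMSO and 193 and 155 with dynasore, a 6.62-fold fall (log2 change −2.73 ± 0.16, adjusted p = 5.6e-07). Cav1, their main coat protein, gave 5809 and 5579 against 1321 and 1773, a 3.41-fold fall (adjusted p = 3.1e-06). Both Dynasore arrays lay far below both DMSO arrays for each. Of 7 measured caveolins, cavins and flotillins, a set put together after their values were seen, 5 fell and the other 2 did not pass. Snx18, a membrane-bending protein that binds dynamin, and Dab2, a clathrin adaptor, fell by 1.31 and by 1.26 on the log2 scale. Rab5a, the GTPase of early endosomes, went the other way, from 892 and 1159 units to 1994 and 2200 (2.28-fold, adjusted p = 0.00042), and Rabep1, which binds it, rose by 0.89. The endocytic adaptors Necap1 and Eps15 and the sorting protein Hgs rose by 0.86, 0.68 and 0.63. The 8 rises became 4 without DMSO replicate 1 or Dynasore replicate 2, 5 without Dynasore replicate 1, 5 with no further normalization and 4 with equal medians. The 8-array fit called 4 members, all lower.

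Of the 50 gene groups examined, that of the integrated stress response had the highest median change, at 1.92. Of its 17 measured transcription factors and markers 14 rose. With only probes above background on all 8 arrays tested, 9 were called higher. That filter kept 6304 probes, and members that it removed were not tested and are not counted. Its limit was 258 units on BMP-2+DMSO replicate 2 and 17.2 to 62.0 on the other arrays. Trib3, a pseudokinase that restrains ATF4 and AKT, gave 28.9 and 47.2 units with DMSO and 3389 and 3213 with dynasore, a 41.7-fold rise (log2 change 5.38 ± 0.14, adjusted p = 2.5e-09). Ddit3, which encodes the stress factor CHOP, gave 244 and 258 against 8347 and 8699 (35.8-fold, adjusted p = 3.8e-09). Ppp1r15a, the GADD34 subunit that guides eIF2α dephosphorylation, gave 266 and 251 against 4396 and 4274 (17.4-fold, adjusted p = 6.7e-09). In each case the Dynasore arrays lay close together and more than an order of magnitude above the DMSO arrays. Chac1, an enzyme that degrades glutathione, rose 19.2-fold and the transcription factor Atf3 rose 12.4-fold. The members that did not pass were Cebpg (0.13), Atf5 (0.30) and Sesn2. Sesn2, named here after its values were seen, gave 37.1 and 47.3 units with DMSO and 433 and 499 with dynasore (adjusted p = 0.099), and its BMP-2+Dynasore duplicates lay apart at 442 and 91.1. With all 8 arrays fitted 10 members passed. Atf4 itself was not analysed here.

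Genes of amino acid supply were counted next. Among 15 genes for the synthesis of serine, glycine, asparagine and proline and for folate carbon units 10 rose (median 0.99), and 5 passed in the 8-array fit. With only probes above background on all 8 arrays tested, 6 were called higher, and members that this filter removed are not counted. Asns, which makes asparagine, gave 884 and 761 units with DMSO and 4130 and 3831 with dynasore, a 5.26-fold rise (adjusted p = 1.6e-07). The mitochondrial folate enzymes Mthfd2 and Aldh1l2 rose 6.52-fold and 4.31-fold, and Gpt2, an alanine aminotransferase, 6.43-fold. Pycrl, a proline-synthesis enzyme, went against the group and fell by 0.65 on the log2 scale. Among 17 amino acid transporters 7 rose. With only probes above background on all 8 arrays tested 3 were called higher, and members that the filter removed are again not counted. Slc7a11, the cystine carrier, stood below background in DMSO at −1.58 and 10.1 units and reached 2720 and 3095 with dynasore, at least 43.2-fold higher (adjusted p = 2.5e-09). The fold is a lower bound because the DMSO arrays were set to the lowest signal that stood above background. Slc6a9, a glycine carrier, rose 14.0-fold, and Slc7a5, which imports large neutral amino acids, gave 1939 and 2011 against 11754 and 13671 (7.04-fold). Slc1a3, a glutamate carrier, had the largest fall of all genes by fitted log2 change, from 2996 and 3008 units to 130 and 163 (17.7-fold, log2 change −4.14 ± 0.14, adjusted p = 8.9e-09). It was the only called fall among the transporters, and 4 transporters in all passed in the 8-array fit.

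The enzymes that charge tRNAs with amino acids were counted by compartment. Of 19 cytosolic synthetases 11 rose (median 0.82). Aars, the alanine enzyme, gave 1967 and 1716 units with DMSO and 7887 and 7773 with dynasore, a 4.67-fold rise (adjusted p = 9.3e-08). Iars, for isoleucine, gave 366 and 335 against 1315 and 1458 (4.29-fold, adjusted p = 4.6e-07). For both, the Dynasore arrays lay well apart from the DMSO arrays. Kars, the lysine enzyme of both compartments, fell by 0.37, a call lost without either DMSO array or Dynasore replicate 2. Of 11 mitochondrial synthetases only Ears2 rose, by 1.10, and the median was −0.04. The difference between the 2 groups was not tested. The 8-array fit called 5 cytosolic enzymes.

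The window from 250 bases before to 50 bases after the start of a gene, from RefSeq on GRCm38.p6, was read for the letters TGATGNAAN on both strands, the pattern bound by ATF4 with a C/EBP protein. It was present in 4.50% of all genes with such a window. Among risen genes with a window it was found in 6 of 12 stress response genes, 2 of 8 synthesis genes and 4 of 6 cytosolic synthetases. Among those that did not pass it was found in 0 of 3, 0 of 4 and 1 of 5. The windows of the members with the largest rises that hold it are shown with the match in capitals, written on the strand of the gene, so that a match to the opposite strand reads as its reverse complement. A match is a run of letters and not a measured binding site.
Trib3 (chr2:152344011-152344310, minus strand): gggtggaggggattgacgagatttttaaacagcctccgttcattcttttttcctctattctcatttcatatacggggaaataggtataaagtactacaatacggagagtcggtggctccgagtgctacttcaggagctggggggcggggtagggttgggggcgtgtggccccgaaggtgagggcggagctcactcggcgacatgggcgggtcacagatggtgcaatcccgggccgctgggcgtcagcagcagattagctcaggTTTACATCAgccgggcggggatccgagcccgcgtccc
Chac1 (chr2:119350992-119351291, plus strand): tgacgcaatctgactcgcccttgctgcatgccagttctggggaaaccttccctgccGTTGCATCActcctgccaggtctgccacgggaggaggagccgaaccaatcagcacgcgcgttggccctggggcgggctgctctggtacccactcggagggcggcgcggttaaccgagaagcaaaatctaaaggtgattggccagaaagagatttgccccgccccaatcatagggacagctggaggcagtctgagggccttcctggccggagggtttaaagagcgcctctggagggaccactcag
Asns (chr6:7693160-7693459, minus strand): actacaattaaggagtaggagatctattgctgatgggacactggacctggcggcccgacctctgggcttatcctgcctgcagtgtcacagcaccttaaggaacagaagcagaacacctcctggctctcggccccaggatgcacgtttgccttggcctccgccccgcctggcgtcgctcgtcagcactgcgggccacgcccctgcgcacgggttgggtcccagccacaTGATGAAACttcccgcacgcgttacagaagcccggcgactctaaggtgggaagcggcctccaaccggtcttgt
Aars (chr8:111033592-111033891, plus strand): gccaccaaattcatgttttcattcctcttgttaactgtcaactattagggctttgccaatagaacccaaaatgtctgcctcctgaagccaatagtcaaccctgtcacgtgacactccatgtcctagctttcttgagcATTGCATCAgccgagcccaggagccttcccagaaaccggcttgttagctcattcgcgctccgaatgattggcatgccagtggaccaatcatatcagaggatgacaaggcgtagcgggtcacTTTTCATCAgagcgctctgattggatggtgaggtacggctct
The match in Chac1 began 194 bases before the start and that in Asns 23 bases before it, while that in Trib3 began 13 bases after it. Aars held 2 matches, the first 113 bases before the start.

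Chaperones and enzymes of the endoplasmic reticulum, which the unfolded protein response controls, rose almost without exception. Of 20 measured members 18 rose, with a median of 1.50. Dnajb9, a co-chaperone of the lumen, gave 290 and 267 units with DMSO and 2525 and 2861 with dynasore, a 10.1-fold rise (adjusted p = 1.3e-08). Herpud1, which serves the disposal of misfolded proteins, gave 7266 and 6005 against 35353 and 35426 (5.18-fold, adjusted p = 5.5e-08). Hspa5, which encodes the chaperone BiP, rose from 26.6 and −2.34 units, with 1 of the DMSO arrays above background, to 189 and 229 (adjusted p = 8.8e-05). None of the 3 genes had overlapping groups. Ero1b, an oxidase that forms disulfide bonds, and Creld2, a stress-induced protein of the lumen, rose by 2.31 and 1.92. With all 8 arrays fitted 6 members passed. Among 19 heat shock proteins of the cytosol and mitochondria 9 rose (median 0.45), and 2 passed in the 8-array fit. Hsph1, a cytosolic chaperone of the HSP110 family, gave 849 and 778 against 3310 and 3604 (4.59-fold, adjusted p = 1.4e-07), and the co-chaperone Dnajb1 and the mitochondrial chaperone Hspa9 rose by 1.62 and 1.59. Hspb1 and Hspe1, also on this list and named after their values were seen, changed by −0.01 and 0.13 and did not pass.

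Genes of the oxidative stress response held the largest fitted log2 change. The rise of Slc7a11, known only as a lower bound, cannot be ranked against it. Hmox1, heme oxygenase, which breaks heme down to biliverdin, carbon monoxide and iron, gave 314 and 520 units with DMSO and 32359 and 39246 with dynasore, a rise of 88.0-fold (log2 change 6.46 ± 0.23, adjusted p = 4.6e-06). Gclm, the modifier subunit of the enzyme that starts glutathione synthesis, gave 967 and 1227 against 9259 and 9596 (9.52-fold, adjusted p = 3.7e-08). Srxn1, sulfiredoxin, which repairs oxidized peroxiredoxins, gave 661 and 569 against 4265 and 5094 (8.33-fold, adjusted p = 1.1e-07). Both Dynasore arrays stood above both DMSO arrays for each of them. The list of 28 targets of the oxidant sensor NRF2 and genes of glutathione and thioredoxin had 12 rises, 5 falls and a median of 0.54. These were shares of 42.9% and 17.9%, against 18.1% and 19.7% of all genes. The 5 falls became 1 without DMSO replicate 1, DMSO replicate 2 or Dynasore replicate 1, 0 without Dynasore replicate 2 and 3 with equal medians, whereas at least 10 rises passed each time. Nqo1, often read as a marker of NRF2 activity, rose by 0.63. The peroxidases Gpx1 and Gpx4 fell by 0.52 and 0.45, Mgst1 by 0.78, and Tkt and Taldo1, of the pentose phosphate path, by 0.37 and 0.32. The glutathione transferases Gsta2 and Gsta1, which are not on the list, rose 21.9-fold and 13.4-fold. Their sequences are nearly identical, so that their probes may share signal. The 8-array fit called 6 members of the list, all higher.

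The letters TGACNNNGC, the core of the element bound by NRF2, occurred in 14.0% of all windows counted by gene, in 2 of 10 risen members, in 1 of 5 fallen members and in 5 of 9 that did not pass. The window of Gclm, the risen member with a match that changed most, is shown with the match in capitals.
Gclm (chr3:122245307-122245606, plus strand): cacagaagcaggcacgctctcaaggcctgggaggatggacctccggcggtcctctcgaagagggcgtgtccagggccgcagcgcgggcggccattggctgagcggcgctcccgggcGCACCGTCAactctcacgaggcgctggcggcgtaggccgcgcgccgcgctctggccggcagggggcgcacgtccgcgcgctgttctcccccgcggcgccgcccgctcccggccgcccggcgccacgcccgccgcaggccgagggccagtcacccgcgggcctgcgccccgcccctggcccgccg

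Iron genes gave smaller changes. Tfrc, the transferrin receptor, whose mRNA is stabilised when iron is short, gave 2348 and 2345 units with DMSO and 4604 and 5103 with dynasore, a 2.24-fold rise (log2 change 1.17 ± 0.18, adjusted p = 0.0013, and 0.053 in the 8-array fit). Among 15 genes for iron and other metals 6 rose, with Hmox1 among them, and 1 passed in the 8-array fit. The metallothionein Mt2 rose by 1.25, Slc40a1, the exporter ferroportin, by 1.19 and Ireb2, an iron regulatory protein, by 1.07, while Cp, ceruloplasmin, which oxidizes iron, fell by 1.04.

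**Figure D2:**
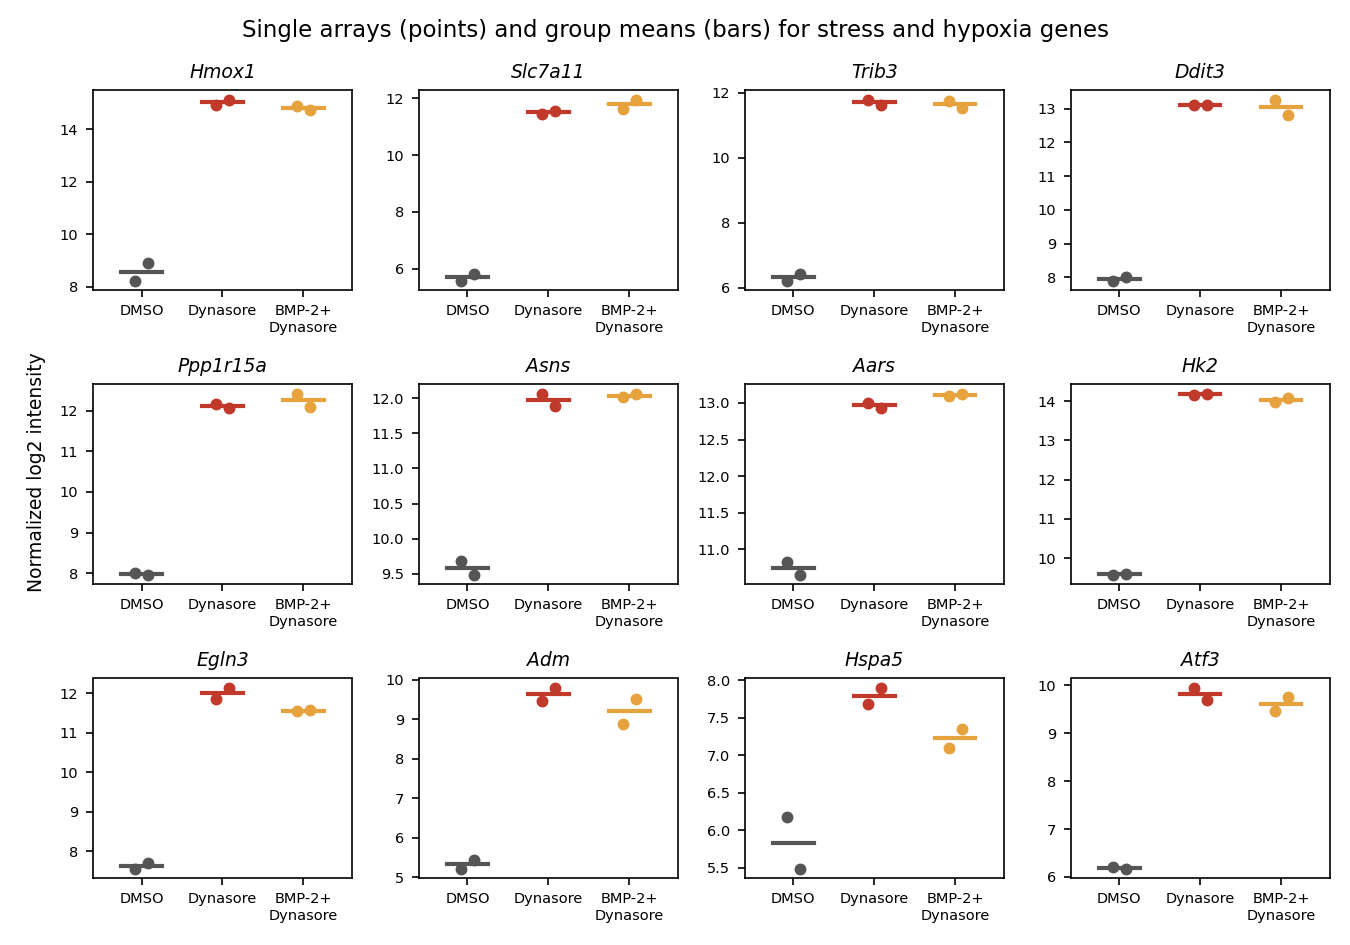
Normalized log2 intensity of 12 genes on single arrays (points) and as group means (bars) for DMSO, Dynasore and BMP-2+Dynasore, 2 arrays each; the vertical scale differs between panels. On every panel both Dynasore arrays lie above both DMSO arrays, and the BMP-2+Dynasore arrays lie near the Dynasore arrays.

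Targets of the hypoxia-inducible factors had the highest share of risen members among the 50 groups, and the labels give no low oxygen. Of 28 measured targets 26 rose (92.9%), with a median of 1.85, and 15 passed in the 8-array fit. With only probes above background on all 8 arrays tested, 17 were called higher, and targets that this filter removed were not tested and are not counted. Hk2, the hexokinase that commits glucose to use in the cell, gave 822 and 823 units with DMSO and 17318 and 18890 with dynasore, a 24.0-fold rise (log2 change 4.58 ± 0.10, adjusted p = 1.3e-09). Egln3, an oxygen-dependent prolyl hydroxylase, gave 180 and 205 against 3583 and 4538 (20.6-fold, adjusted p = 5.3e-09). Adm, the vessel-dilating peptide adrenomedullin, was below background in DMSO and gave 692 and 897 with dynasore, at least 11.8-fold higher. In all 3 the arrays of the groups lay far apart. The glucose carrier Slc2a1 gave 2952 and 3319 against 35239 and 34973 (10.5-fold, adjusted p = 6.7e-09), and Vegfa, which drives vessel growth, gave 618 and 518 against 4533 and 5105 (9.49-fold, adjusted p = 2.2e-08). Lox, which crosslinks collagen, went against the group, from 9081 and 11152 to 5813 and 5467 (adjusted p = 0.00084). Ak4, a mitochondrial adenylate kinase that is not on the list, rose 15.0-fold.

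Glycolysis shares some genes with this list. Of 16 genes of glycolytic enzymes and lactate export 9 rose and 2 fell (median 0.94). Eno2, a form of enolase, gave 534 and 454 units with DMSO and 6801 and 6906 with dynasore (15.3-fold, adjusted p = 3.7e-09). Pfkl and Pgam1, which act in the upper and lower part of the path, rose by 1.69 and 1.41, and the lactate exporter Slc16a3 by 0.97. The 2 falling members, Eno3 (−0.57) and Pfkm (−0.49), are the forms best known from muscle. The brightest probe of Gapdh did not pass, at 44131 and 45787 against 50242 and 51392 units (0.22 ± 0.08, adjusted p = 0.054), while its other probe was called higher (0.27 ± 0.09, adjusted p = 0.031). Eno3 and Pfkm both passed without DMSO replicate 2, and 1 of them without any other of the 4 arrays. In the 8-array fit 4 members passed.

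The letters ACGTG, the core of the hypoxia response element, occurred on either strand in 21.8% of all windows counted by gene, in 12 of 18 risen hypoxia targets and in 6 of 9 risen glycolysis genes. Of the glycolysis genes that did not pass, 4 of 5 held them too. The windows of Hk2, with 2 matches, and Egln3 are shown, as the members with the largest rises.
Hk2 (chr6:82774405-82774704, minus strand): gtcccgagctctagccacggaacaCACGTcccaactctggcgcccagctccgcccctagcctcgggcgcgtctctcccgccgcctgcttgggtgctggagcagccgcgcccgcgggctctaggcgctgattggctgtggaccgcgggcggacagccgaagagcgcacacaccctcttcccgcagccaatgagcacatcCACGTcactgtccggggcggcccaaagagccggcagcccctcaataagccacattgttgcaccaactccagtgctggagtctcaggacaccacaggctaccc
Egln3 (chr12:54203825-54204124, minus strand): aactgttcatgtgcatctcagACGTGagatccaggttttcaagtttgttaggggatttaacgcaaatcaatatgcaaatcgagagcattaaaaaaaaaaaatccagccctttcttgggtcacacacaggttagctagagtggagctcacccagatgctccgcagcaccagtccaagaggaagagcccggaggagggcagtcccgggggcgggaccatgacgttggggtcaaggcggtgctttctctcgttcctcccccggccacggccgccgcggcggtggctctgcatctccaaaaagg

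Mitochondrial genes were counted by function. Of 69 subunits of the respiratory chain and ATP synthase 31 fell (44.9%, against 19.7% of all genes), with a median of −0.33, and the others did not pass. The count of falls was 19 without DMSO replicate 1 and 22 to 24 without any other of the 4 arrays. The falls were spread over the complexes, with 17 of 33 subunits of complex I, 4 of 6 of the bc1 complex, 4 of 11 of cytochrome c oxidase and 6 of 14 of ATP synthase. Ndufb3, of complex I, gave 2773 and 2442 units with DMSO and 985 and 1050 with dynasore, a 2.42-fold fall (adjusted p = 1.7e-05). It was called in the 8-array fit too, where 1 subunit passed. In the tricarboxylic acid cycle and its entry 10 of 22 members fell and 2 rose (median −0.30), with 5 falls without DMSO replicate 1 and 0 calls in the 8-array fit of limma, where 3 had an unadjusted p under 0.05. The largest of these falls was that of Idh1, the cytosolic isocitrate dehydrogenase, which is on the list but acts outside the mitochondrial cycle. It gave 7531 and 7004 against 1384 and 1646 (4.44-fold, adjusted p = 3.0e-07), but did not pass in the 8-array fit (adjusted p = 0.50). The next largest, of Idh3a, Pdp1 and Dlat, were smaller, at 1.86-fold, 1.84-fold and 1.78-fold. Pdk1, which switches off the entry of pyruvate and is also a hypoxia target, rose 3.68-fold. Of 66 mitochondrial ribosomal proteins 18 fell (27.3%) and 7 rose (10.6%, against 18.1% of all genes), among them Mrpl36 (log2 change −1.99) and Mrps18b (1.27). The falls became 11 without DMSO replicate 1 or 2, 9 without Dynasore replicate 2 and 27 with no further normalization. The rises became 3 or 4 without any 1 of the 4 arrays and 3 under either other scaling, and the 8-array fit called 1 in each direction. The 52 cytosolic ribosomal proteins stayed within a narrow range: Rpl38 and Rps27 fell by 0.26 and 0.22, calls that were lost without any 1 of the 4 arrays, the other 50 did not pass, and the median was −0.08. Among 26 genes that build ribosomes 12 rose, led by Myc, a transcription factor for growth, at 1.65 and the nucleolar protein Nop58 at 1.20. These 12 became 7 without Dynasore replicate 2 and the call of Myc was lost without any 1 of the 4 arrays, and 1 member passed in the 8-array fit.

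Cholesterol synthesis fell at nearly every measured step. Of 15 measured enzymes, from the first steps of the mevalonate pathway to the last, 14 fell, and Tm7sf2 (−0.53, adjusted p = 0.13) did not pass. Hmgcs1, which makes HMG-CoA, gave 28603 and 31662 units with DMSO and 4348 and 4281 with dynasore, a 6.66-fold fall (log2 change −2.74 ± 0.09, adjusted p = 9.0e-09). Fdps, farnesyl diphosphate synthase, gave 19013 and 16715 against 2630 and 2807 (6.22-fold, adjusted p = 4.5e-08). Hsd17b7, a sterol reductase, gave 3395 and 2789 against 357 and 412 (7.55-fold, adjusted p = 8.5e-08). In these 3 genes both Dynasore arrays lay far below both DMSO arrays. Dhcr7, a reductase at the end of the pathway, fell 5.02-fold and Nsdhl, another enzyme of the late pathway, fell by 2.25 on the log2 scale. Of 6 genes of sterol transport and control, Stard4, a cholesterol carrier, fell by 1.97, and Insig2, which holds the SREBP factors back in the endoplasmic reticulum, rose from 547 and 534 units to 723 and 956 (1.68-fold, adjusted p = 0.0023). Srebf1 and Srebf2, the SREBP genes themselves, changed by −0.24 and −0.30 and did not pass. In the 8-array fit 3 members of the whole list of 21 passed. The 15 falls of that list became 9 with only probes above background on all 8 arrays tested, where members that the filter removed are not counted.

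**Figure D3:**
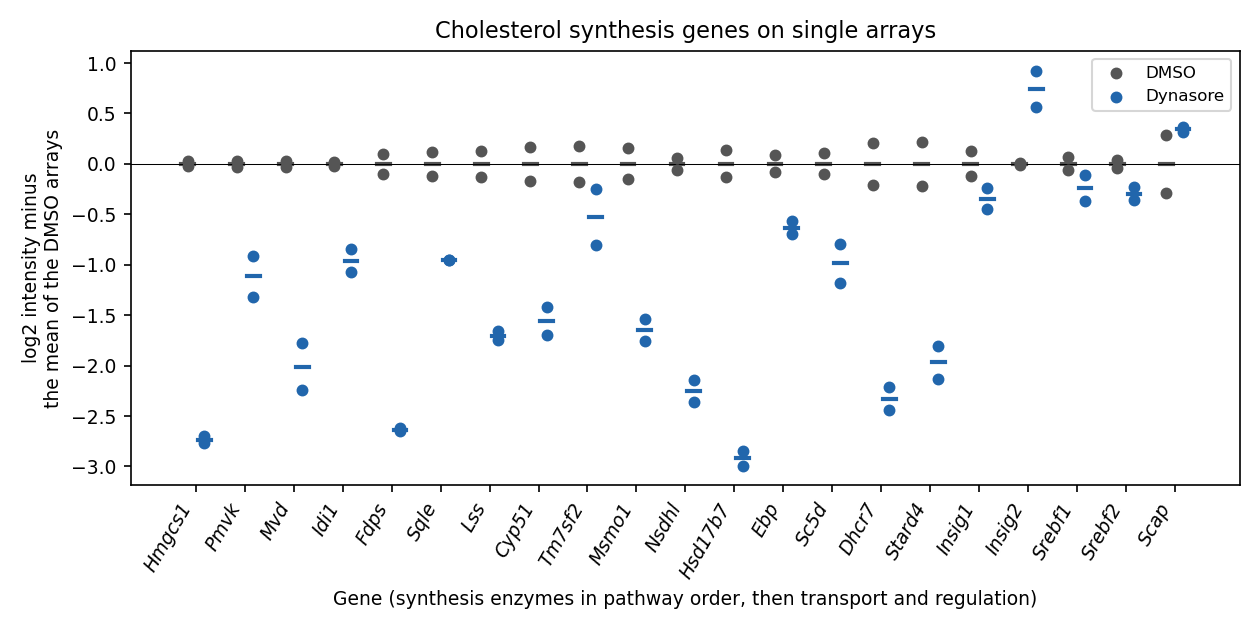
Log2 intensity of 21 genes of cholesterol synthesis, transport and control on single DMSO and Dynasore arrays (points, with bars at the group means), relative to the mean of the DMSO arrays of that gene. The Dynasore arrays lie below the DMSO arrays from Hmgcs1 to Stard4, and above them for Insig2.

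The letters TCACNCCAC, the sterol regulatory element, occurred in 1.44% of all windows counted by gene and, of the 12 fallen members with a window, in that of Hmgcs1. It was in 0 of 5 windows of members that did not pass.
Hmgcs1 (chr13:119690101-119690400, plus strand): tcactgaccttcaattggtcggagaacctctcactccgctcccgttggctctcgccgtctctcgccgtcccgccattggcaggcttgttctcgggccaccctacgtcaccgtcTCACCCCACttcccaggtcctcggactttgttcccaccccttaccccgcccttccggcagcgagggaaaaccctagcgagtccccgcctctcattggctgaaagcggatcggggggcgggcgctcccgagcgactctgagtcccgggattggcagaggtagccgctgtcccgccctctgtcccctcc

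Fatty acid genes share control by SREBP factors. Of 15 genes for the synthesis, elongation and desaturation of fatty acids 9 fell (median −0.64), and 3 passed in the 8-array fit. Elovl6, an elongase, gave 2339 and 2073 units with DMSO and 470 and 416 with dynasore, a 4.60-fold fall (adjusted p = 7.0e-07). Scd1, a desaturase, gave 5394 and 4829 against 1316 and 1501 (3.36-fold, adjusted p = 2.0e-06). Acly, which supplies acetyl-CoA, and Fads2, another desaturase, fell by 1.46 and 1.45. Fasn, which makes palmitate, changed by 0.02 and did not pass (named after its value was seen).

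Lysosome and autophagy genes held more rises than falls, and about as many members that did not pass. Of 33 lysosomal genes 13 rose, 2 fell and 18 did not pass (median 0.27), led by the sialidase Neu1 at 1.47 and the proton pump subunit Atp6v1h at 1.43. Of 24 autophagy genes 10 rose, 2 fell and 12 did not pass (median 0.26). Sqstm1, the cargo receptor p62, rose by 1.83 ± 0.35 (adjusted p = 0.020, a call lost without any 1 of the 4 arrays) and Ulk1, the kinase that starts autophagy, by 1.42, whereas the LC3 genes Map1lc3a and Map1lc3b fell by 0.94 and 0.70. With all 8 arrays fitted limma called 2 lysosomal genes and 0 autophagy genes, of which 3 had an unadjusted p under 0.05. The 2 lysosomal falls were both lost without DMSO replicate 1 or Dynasore replicate 1.

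**Figure D4:**
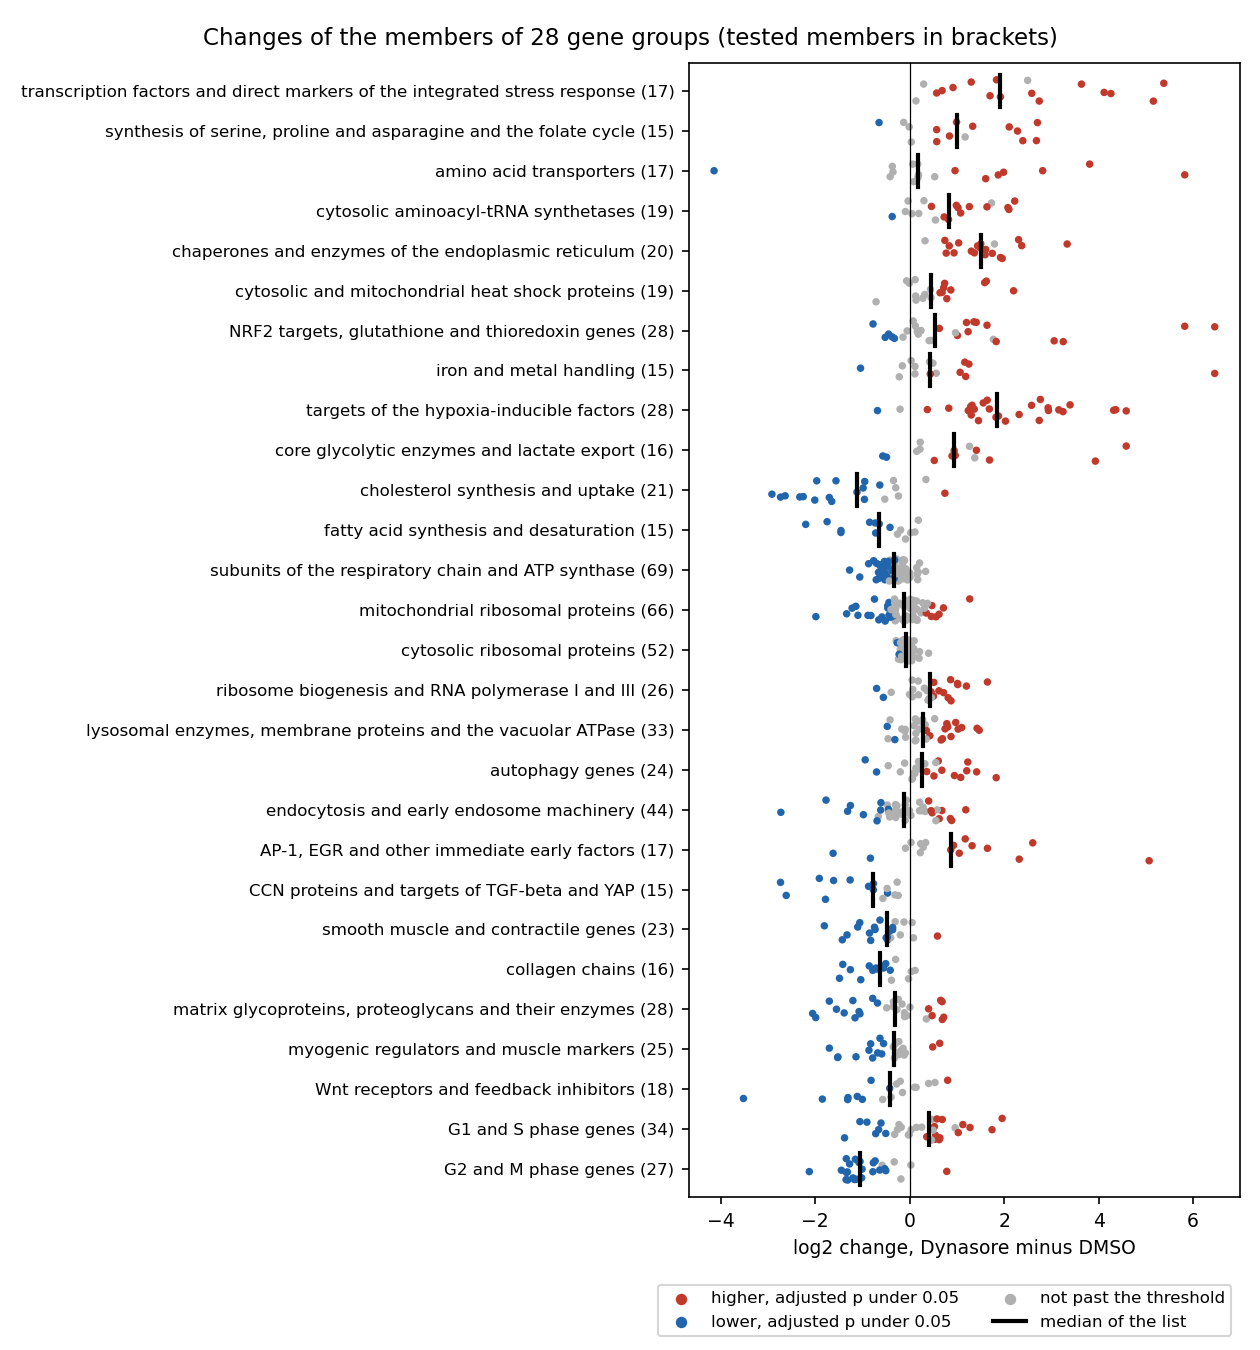
Log2 change, Dynasore minus DMSO, of the tested members of 28 gene groups; each point is 1 gene, coloured by its call, and the black bars mark the group medians. Stress, endoplasmic reticulum and hypoxia groups lie to the right of 0, sterol, contractile, collagen and G2 and M phase groups to the left, and cytosolic ribosomal proteins close to 0.

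Genes of the cell cycle were counted by phase. Of 27 genes of G2 and mitosis 22 fell (81.5%, median −1.05). Plk1, the kinase that drives entry into mitosis, gave 1914 and 1970 units with DMSO and 436 and 383 with dynasore, a 4.36-fold fall (adjusted p = 6.7e-07). Cdc20, an activator of the anaphase-promoting complex, gave 2636 and 2717 against 999.9 and 864 (2.73-fold, adjusted p = 1.9e-05). Both groups lay apart in each, and Pttg1, Kif2c and Prc1, which serve chromosome separation and the spindle, fell by 1.35, 1.34 and 1.34. Cdc27, a core subunit of the same complex that Cdc20 activates, was the 1 called rise, from 192 and 224 to 349 and 362 (1.72-fold, adjusted p = 0.0018). In the 8-array fit 1 member passed, and Plk1 and Cdc20 each had an adjusted p of 0.053. Of 34 genes of G1 and S phase 14 rose (41.2%, against 18.1% of all genes) and 7 fell (20.6%, against 19.7%), with a median of 0.41. The rises became 6 without DMSO replicate 1, 7 without Dynasore replicate 1 or 2, 9 without DMSO replicate 2 and 8 with equal medians, beside 5 to 7 falls, and 0 members passed in the 8-array fit of limma, with 9 at an unadjusted p under 0.05. E2f3, a transcription factor for S phase entry, and cyclin Ccne2 rose by 1.96 and 1.74, and cyclins Ccnd3 and Ccnd1 fell by 1.05 and 0.91. The letters CCAAT were found in 14 of 20 fallen G2 and M genes with a window and in 41.1% of all windows counted by gene. Among 24 targets of p53, 13 rose (54.2%, against 18.1% of all genes) and 3 fell (12.5%, against 19.7%). The 8-array fit called 1 higher and 1 lower. Mdm2, which degrades p53, gave 2199 and 2508 against 9902 and 9498 (4.49-fold, adjusted p = 1.9e-07), and Trp53inp2, which acts in autophagy, fell by 2.11.

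**Figure D5:**
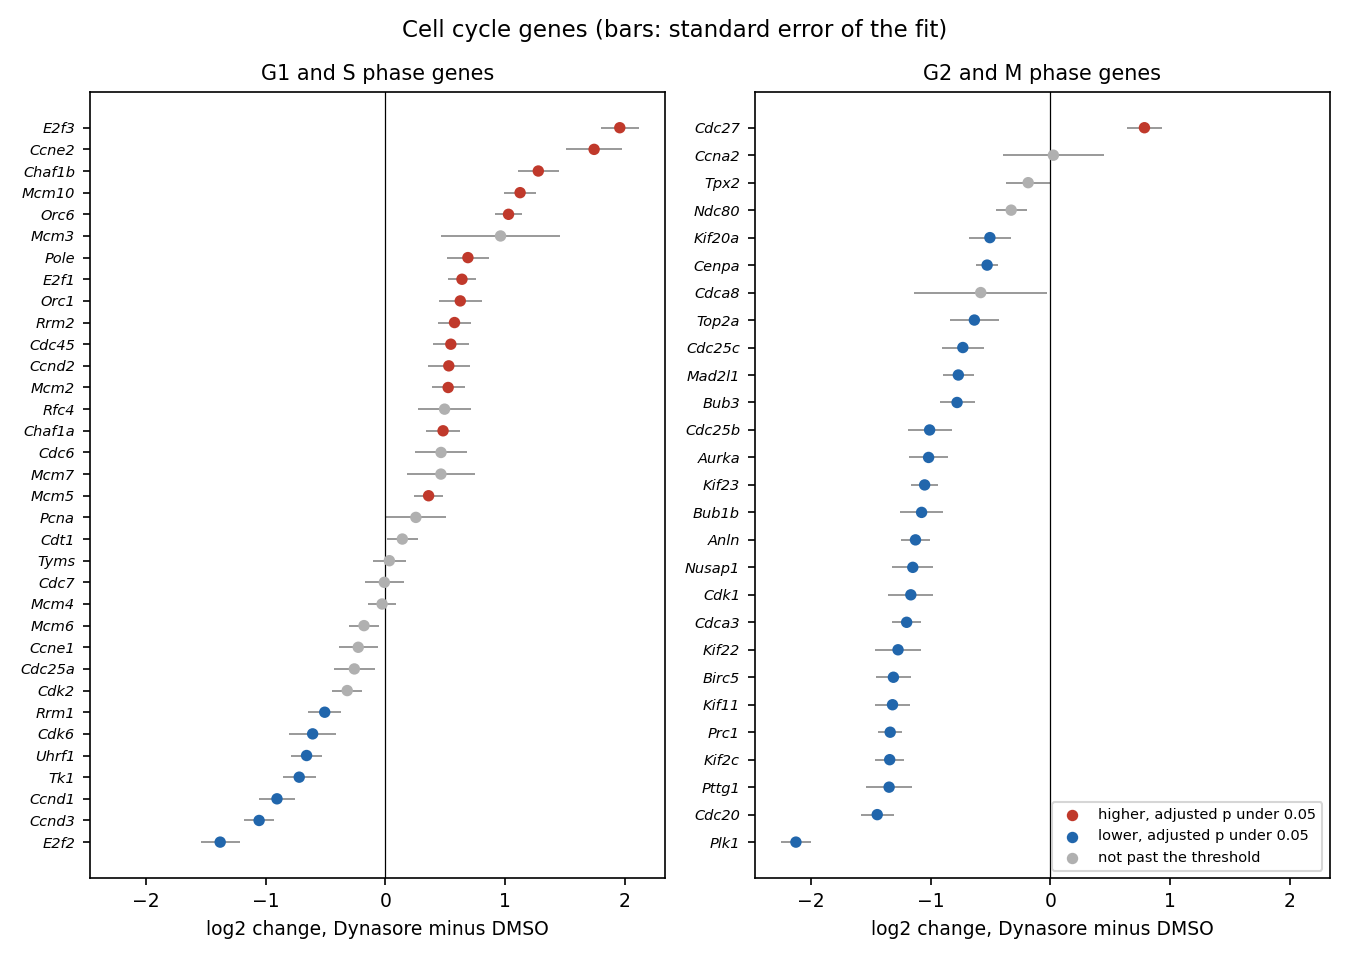
Log2 change, Dynasore minus DMSO, of 34 G1 and S phase genes (left) and 27 G2 and M phase genes (right); points are coloured by call and bars are the standard error of the fit. Falls fill the right panel, with Plk1 lowest and Cdc27 the called rise, and the left panel holds rises and falls.

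Genes of the cytoskeleton and matrix were counted by list. Of 23 contractile genes and targets of serum response factor 16 fell (median −0.47), among them Srf itself, which gave 601 and 544 units with DMSO and 129 and 131 with dynasore (3.50-fold, adjusted p = 1.4e-05), and Zyx, of focal adhesions, by 1.33. Tagln, which binds actin in smooth muscle, rose by 0.59, and Actb fell by 0.50. Of 15 CCN genes and targets of TGF-beta and YAP 10 fell (median −0.77). Tgfb3, a TGF-beta ligand, gave 1415 and 1255 against 178 and 162 (6.66-fold, adjusted p = 3.5e-07), and Ccn2, connective tissue growth factor, 1183 and 1229 against 309 and 327 (3.44-fold, adjusted p = 7.7e-06). Thbs1, an activator of TGF-beta, had a wider spread, at 462 and 722 against 58.4 and 51.7 (adjusted p = 0.017). All 4 genes given by array here had separate groups. The 16 contractile falls became 9 without DMSO replicate 1, and the call of Thbs1 was lost without DMSO replicate 2 or either Dynasore array. In the 8-array fit 1 contractile gene and 2 CCN and TGF-beta genes passed.

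Of 16 collagen chains 11 fell (median −0.62), with Col6a2 lowest at −1.49. Col1a1 gave 217 and 232 units with DMSO and 123 and 105 with dynasore, and fell by 0.71 on the log2 scale, a call lost without DMSO replicate 2 or Dynasore replicate 2. Without either of these arrays the 11 collagen falls became 7, and 0 collagens passed in the 8-array fit of limma, with 7 at an unadjusted p under 0.05. Of 28 other matrix genes 11 fell (39.3%, against 19.7% of all genes), 6 rose (21.4%, against 18.1%) and 11 did not pass. The 6 rises became 2 without DMSO replicate 2, 1 without Dynasore replicate 2 and 3 with equal medians, and the 8-array fit called 3 falls. The small proteoglycans Prelp, Ogn and Dcn fell by 2.06, 1.99 and 1.55, and the protease Mmp13 and the inhibitor Timp3 rose by 0.72 and 0.66. Of the 20 largest falls of all genes, several encode secreted or cell surface proteins and others do not, and the share was not tested. Spon2, a secreted matrix protein, gave 4204 and 4009 units against 194 and 282 (16.2-fold, adjusted p = 3.8e-05). Tgm2, which crosslinks proteins, gave 1568 and 1527 against 50.3 and 70.2 (15.8-fold, adjusted p = 3.5e-08). Cxcl12, a chemokine, gave 1327 and 1336 against 94.2 and 99.7 (10.1-fold, adjusted p = 6.0e-08). The DMSO duplicates of these genes agreed closely and lay far above the Dynasore arrays. Sertad4 gave 2211 and 2119 against 139.9 and 162 (12.0-fold, adjusted p = 1.5e-07), and Stard13 fell 9.08-fold. St3gal5, which makes the ganglioside GM3, fell 8.13-fold and the protease Adamts4 7.47-fold. The amine oxidase Aoc3, the serine protease Htra3 and Tril, a partner of Toll-like receptors, fell 6.25-fold, 6.19-fold and 6.18-fold. Hpgd, which inactivates prostaglandins, was not above background with dynasore and fell at least 4.49-fold. Among the 20 largest rises, Slc25a33, a mitochondrial carrier of pyrimidine nucleotides, rose 13.5-fold. Of the 14 chemokines and related cytokines 4 fell (28.6%, against 19.7% of all genes) and 3 rose (21.4%, against 18.1%), and 1 passed in the 8-array fit.

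Signalling genes of the BMP pathway were mixed even without added BMP-2. Of 19 targets and feedback inhibitors 8 rose (42.1%, against 18.1% of all genes) and 4 fell (21.1%, against 19.7%). Id1, a direct target, gave 304 and 282 units with DMSO and 156 and 141 with dynasore (log2 change −0.76 ± 0.14, adjusted p = 0.0013). Smad6, an inhibitory Smad, gave 202 and 191 against 57.5 and 73.2 (−1.08 ± 0.16, adjusted p = 0.00039), and its other probe did not pass (−0.74, adjusted p = 0.73). Grem1, a secreted BMP antagonist, gave 258 and 174 against 1218 and 1331, a 6.04-fold rise (adjusted p = 6.8e-07). The groups did not overlap for these 3, of which Grem1 alone passed in the 8-array fit. The 8 rises became 4 without DMSO replicate 1 or Dynasore replicate 2, and 2 members passed in the 8-array fit. Of 18 receptors, ligands and Smads 7 fell (38.9%, against 19.7% of all genes) and 4 rose (22.2%, against 18.1%). Those falls became 4 without Dynasore replicate 1, and the rises 1 without DMSO replicate 2 or Dynasore replicate 2 and 2 with equal medians. The ligand Bmp4 fell 3.45-fold, Smad5 and the receptor Tgfbr2 fell by 1.45 and 1.43, and the receptor Bmpr2 rose by 0.89. Of 18 Wnt genes 8 fell (44.4%, against 19.7% of all genes) and 1 rose (5.56%, against 18.1%). The receptor Fzd2 gave 1681 and 1640 units against 109 and 116 (11.5-fold, adjusted p = 3.4e-08), and Fzd7 rose by 0.80. With all 8 arrays fitted 1 receptor, ligand or Smad and 1 Wnt gene passed.

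Immediate early and feedback genes divided. Ier3, an early gene of survival and ERK signalling, gave 1337 and 1291 units with DMSO and 44949 and 41233 with dynasore (33.6-fold, adjusted p = 6.7e-09). Of 17 AP-1, EGR and other early factors 9 rose (52.9%, against 18.1% of all genes) and 2 fell (11.8%, against 19.7%), with a median of 0.87. Klf4 rose from 489 and 553 to 2681 and 3134 (6.09-fold, adjusted p = 1.5e-07), whereas Egr1 fell from 4832 and 4539 to 1315 and 1540 (3.08-fold, adjusted p = 2.2e-06). Of 11 feedback genes of the ERK pathway 4 rose (36.4%) and 2 fell (18.2%, near the share of all genes). The phosphatases Dusp4 and Dusp1, which switch off MAP kinases, rose 12.4-fold and 5.87-fold, and Dusp7 fell by 1.69. Of 11 wound and NF-κB genes 6 rose (54.5%) and 3 fell (27.3%), with Tnfaip3, an inhibitor of NF-κB, at 9.89-fold and Plau, the urokinase, at −2.38. The 8-array fit called 3 early factors, 4 ERK feedback genes and 3 wound and NF-κB genes.

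Markers of the cell line were present and partly lower. Myod1, the factor that sets myoblast identity, gave 242 and 234 units with DMSO and 41.8 and 34.4 with dynasore (3.25-fold lower, adjusted p = 3.6e-05), and did not pass in the 8-array fit (adjusted p = 0.48). Myog, which marks the onset of fusion, gave 67.9 and 67.6 against 46.8 and 49.6 and did not pass (−0.35 ± 0.17, adjusted p = 0.14). Of 25 myogenic regulators and muscle genes 11 fell and 2 rose (median −0.32). The falls became 6 without DMSO replicate 1 and 7 without Dynasore replicate 1, the 2 rises were both lost without Dynasore replicate 1 or DMSO replicate 2, and 0 passed in the 8-array fit of limma, with 6 at an unadjusted p under 0.05. Of 8 myoblast markers with a probe 6 were above background on all 4 arrays and 5 of these fell, and Myf5 and Pax7 were not above background. The summed intensity of the 8 was 13174 to 13735 units with DMSO and 7305 to 7834 with dynasore. In whole cultures fewer cells of a kind and less RNA per cell cannot be told apart. Of markers of other cells, 0 of 7 endothelial ones and 1 of 6 blood ones (Hba-a1) were above background, with summed intensities of 18.4 to 33.1 and 77.1 to 87.6 units in DMSO and 53.7 to 112 and 133 to 137 in Dynasore. All sums of markers leave out negative values. The most frequent intensity of dim probes was −1.20 and 3.32 units on the DMSO arrays and 14.2 and 9.47 on the Dynasore arrays. Higher sums of probes below background therefore do not show more of such cells. Among 6 epithelial markers Krt14, which fell by 0.97, and Krt19 were above background, with sums of 2479 to 2593 and 1322 to 1382 units. Of 7 markers of fibroblasts and mesenchyme 6 were above background, 4 of which fell (Col1a1, Col1a2, Pdgfra and S100a4), with sums of 26230 to 32118 and 28377 to 32379 units, most of it Vim. Of 5 chondrocyte markers 3 were above background on both DMSO arrays and 1 on both Dynasore arrays, Sox9 rose by 0.99, and the sums were 181 to 221 and 364 to 401 units. Of 7 neural markers 3 were above background and Map2 fell by 0.57, with sums of 168 to 173 and 167 to 204. Of 6 adipocyte markers only Lpl was, and it fell by 1.08, with sums of 180.2 to 211 and 109 to 139. The part of these markers in the other results was not tested.

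The same compound was also given together with BMP-2. For several genes with large changes the BMP-2+Dynasore arrays lay near the Dynasore arrays: Hmox1 gave 34630 and 25313 units, Trib3 3468 and 3017, Hk2 16701 and 16942, and Hmgcs1 4155 and 4558. Between BMP-2+Dynasore and Dynasore 61 genes were higher (0.65%) and 21 lower (0.224%). Of the 3551 genes that rose or fell with dynasore 60 (1.69%) differed between these groups, and of the 40 genes with the largest changes 2, Tpsab1 and G0s2. Tpsab1, a tryptase, gave 94.4 and 103 units with DMSO, 3195 and 2816 with Dynasore and 11969 and 13270 with BMP-2+Dynasore. G0s2, an inhibitor of lipolysis, gave 935 and 1070, then 107 and 92.9, then 285 and 373. Id1 reached 907 and 828 units with BMP-2+Dynasore (log2 change 2.37 over Dynasore, adjusted p = 1.3e-05), and Smad6 rose by 3.23 over Dynasore, so that these targets of BMP-2 lay far from their Dynasore levels. A p that missed the threshold does not show that the 2 dynasore groups were alike, and both comparisons use the same Dynasore arrays.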

How the data were processed

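The deposited values were intensities per probe from MouseRef-8 bead arrays, 1 array per sample, which the authors had background-subtracted and scaled by rank invariant normalization (BeadStudio 3.0 is named in the submitters' notes). A table of unnormalized values with 16 columns that could not be tied to samples was not used. Values were corrected with normexp (offset 16), put on the log2 scale and quantile normalized over the 8 arrays with limma 3.58.1 in R 4.3.3. A probe counted as above background over a limit set per array, which was the most frequent value among dim probes with a one-sided 95% normal margin added. The number of beads behind a value is unknown here, and 2 arrays per group limit the precision. Groups were compared with lmFit and eBayes (trend, robust) over 7 arrays, with 3 residual degrees of freedom, and the code was tested on simulated data. Gene names came from GEO's platform table: 16886 probes had 1 symbol and 1252 none. For genes not above background in a group, folds are lower bounds. The dynasore comparison and the 50 gene lists were chosen with earlier results of these data known. Genes were named from the 20 largest called rises and falls, up to 5 called members of a list in each direction, the dynamins, members that went against their list, and Hmox1, Trib3, Ddit3, Asns, Hk2, Hmgcs1, Id1, Myod1, Myog, Actb, Gapdh and Tfrc, and not every gene of the rule is reported here. Other arrays in the fit, background and normalization settings, filters, variance models, the methods' one-way test and leaving out single arrays were tried as alternatives. The position of the arrays on slides was not given in the sources used here.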

Additional observations from a re-analysis of the deposited data

How the results depend on the processing

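With all 8 arrays in the fit, limma called 171 probes higher and 158 lower in place of 1838 and 1996, and 1726 had an unadjusted p under 0.05. Of the 314 named genes that were called, 93 passed in that fit. At least 1 gene was called in the 7-array fit and 0 passed in the 8-array fit of limma for the tricarboxylic acid cycle, autophagy, collagens, muscle, G1 and S phase, interferon, ephrins, growth factor receptors, the EGF family, mitochondrial synthetases, adhesion, tubulins and trafficking, osteoblast genes and proteasomes, where 3, 3, 7, 6, 9, 2, 4, 4, 2, 1, 3, 2, 1 and 3 had an unadjusted p under 0.05. The same held for cytosolic ribosomal proteins and LXR targets, with 0 at an unadjusted p under 0.05. BMP-2+Dynasore against Dynasore then gave 2 probes higher and 0 lower, with 79 and 46 at an unadjusted p under 0.05. With single DMSO or Dynasore arrays left out, the counts ranged from 1169 to 1243 higher and from 1276 to 1355 lower. They were 1191 and 1346 without Dynasore replicate 1, 1169 and 1336 without Dynasore replicate 2, 1210 and 1355 without DMSO replicate 2, and 1243 and 1276 without DMSO replicate 1. Named calls were lost without any 1 of these arrays for Mgst1, Myc, Rpl38, Rps27, Sqstm1, Taldo1 and Tkt, without any but Dynasore replicate 1 for Actb, Igfbp2 and Kars, without any but DMSO replicate 2 for Gpx4 and Pfkm, without any but Dynasore replicate 2 for Pdgfrb, and without any but DMSO replicate 1 for Eps15 and Thbs1. They were lost without either replicate 2 for Col1a1, Gpx1 and Mmp13, without either replicate 1 for Map1lc3b, without DMSO replicate 1 or Dynasore replicate 2 for Met, and without 1 array for Hgs (DMSO replicate 1), Mx2 (DMSO replicate 2) and Tagln (Dynasore replicate 1). Leaving out a BMP-2+Dynasore array gave 2465 or 2470 higher and 2565 or 2564 lower. With no further normalization after normexp, 1353 were higher and 2427 lower, so that 35.8% of calls were rises against 47.9% in the reported fit, and the median of all probes moved to −0.10. With equal medians 1391 were higher and 1980 lower (41.3% rises). Every other alternative, among them the variance model without robust fitting that was added after seeing the data, kept both counts within 1.5 times of 1838 and 1996. The methods' one-way test gave 1452 higher and 1622 lower at an unadjusted p of 0.05 with a fold over 1.4, and 2529 and 2903 after Benjamini-Hochberg adjustment with no fold limit. The sign turned in 5 cases: Dnm1 was −0.12 without Dynasore replicate 2 (highest 0.28, without Dynasore replicate 1), and Dnm2 was −0.0998 with no further normalization, −0.0426 with equal medians, and from −0.0317 without DMSO replicate 1 to 0.0967 without DMSO replicate 2, with −0.0027 without Dynasore replicate 1. The causes of the turned signs, and of the changed counts with single arrays left out or other scalings, were not tested. Replicates with the same number in DMSO and Dynasore did not deviate together (r = 0.00279). Between BMP-2+DMSO and BMP-2+Dynasore they did (r = 0.502). The deviations of DMSO correlated at r = −0.279 with those of BMP-2+DMSO and at r = −0.235 with those of BMP-2+Dynasore, and the cause was not tested. With the replicate number as a block, 1708 probes were higher and 1888 lower, and 58 and 18 for BMP-2+Dynasore against Dynasore.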

Other observations

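Smaller groups were counted in the same way, beside 18.1% of all genes that rose and 19.7% that fell. Of 15 Notch genes 6 fell (40%) and 2 rose (13.3%, a share under that of all genes), and 1 passed in the 8-array fit. The ligand Dll1 fell by 1.44 on the log2 scale, the receptor Notch1 by 0.99 and the target Hey1 rose by 0.75. Of 9 interferon-stimulated genes above background 5 fell (55.6%) and 1 rose (11.1%). The falls became 3 without DMSO replicate 1, DMSO replicate 2 or Dynasore replicate 1. In the 8-array fit of limma 0 passed, with 2 at an unadjusted p under 0.05. Ifit2 changed by −0.99 and the transcription factor Irf1 by −0.97, and Mx2 rose by 0.90. Of 19 C/EBP, Kruppel-like and related factors 9 rose (47.4%) and 1 fell (5.26%), and 3 of the list passed in the 8-array fit. Among the rises were the circadian repressor Nfil3 at 1.95 and Pparg, a regulator of fat cell genes, at 1.30. Ciart, another circadian repressor, gave 86.9 and 78.6 units with DMSO and 2581 and 2818 with dynasore, a 23.9-fold rise (limma, adjusted p = 2.5e-09). Of 11 polyamine genes 4 rose (36.4%, and 1 in the 8-array fit) and 1 fell (9.09%). Spermidine synthase Srm led the rises at 1.83, and Oaz1, which triggers the decay of ornithine decarboxylase, fell by 0.54.

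Growth factor receptors and ligands had few calls, in shares near the 18.1% of all genes that rose and the 19.7% that fell. Of 11 PDGF, FGF, insulin-type and other growth factor receptors 2 rose (18.2%) and 3 fell (27.3%). Of 7 genes of the EGF receptor, its ligands and feedback 1 rose (14.3%) and 2 fell (28.6%). Of 9 IGF ligands and binding proteins 1 rose (11.1%) and 2 fell (22.2%). The hepatocyte growth factor receptor Met rose by 1.30, Pdgfra and Pdgfrb fell by 1.06 and 0.73, the EGF family ligand Btc rose by 1.15 and Lrig1, which restrains the EGF receptor, fell by 1.23. The insulin receptor substrate Irs2 rose by 1.02, and Igfbp5 and Igfbp2 fell by 1.32 and 0.92. Of 12 ephrins and Eph receptors 3 fell (25%, against 19.7% of all genes) and 1 rose (8.33%, against 18.1%). In the 8-array fit of limma 0 passed, with 4 at an unadjusted p under 0.05. The ligand Efnb1 changed by −1.72 and the ligand Efna1 by 1.81.

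Eprs and Calr, named after their values were seen, differed between the groups by more than many called genes did and yet did not pass. Eprs, a tRNA synthetase, gave 483 and 547 units with DMSO and 1376 and 1688 with dynasore (log2 change 1.73 ± 0.66, adjusted p = 0.14), and 1613 and 501 with BMP-2+Dynasore. Calr, a chaperone of the endoplasmic reticulum, gave 1765 and 2765 against 6714 and 7480 (1.80 ± 1.25, adjusted p = 0.38), and 5132 and 604 with BMP-2+Dynasore. For both, the DMSO and Dynasore arrays did not overlap, while the BMP-2+Dynasore duplicates lay far apart.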
